A study of Homo sapiens with 6 samples.

Results

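RPB1 regions that were strong in SHP-1 KO HepG2 cells and had no counterpart in WT cells were taken from the deposited ChIP-seq region lists. A region was kept when its −log10 q-value in the SHP-1 KO RPB1 list was at least 7 and when it shared no base with any region of the WT RPB1 list. The rule first asked for a −log10 q-value of at least 10, which left 189 of 15483 regions (1.22%), fewer than the 200 it required, so the lower threshold applied. The members were thus selected on their RPB1 q-value in SHP-1 KO cells and on the lack of a WT call, and they were 881 of the 41605 SHP-1 KO RPB1 regions, or 881 of the 19835 that passed the threshold of 7 (4.44%). These 881 regions are called KO-only below, and the other 18954 SHP-1 KO regions past the threshold, which overlap a WT region, are called shared. The same rule turned around selected 2661 WT-only regions from 22482 strong WT regions (11.8%).

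RPB1 is the largest subunit of RNA polymerase II. The enzyme is recruited to promoters, often pauses just downstream of the start, and its C-terminal domain is phosphorylated on serine 2 as it elongates through the gene body, so that antibodies to phospho-Ser2 (pSer2) mark elongating polymerase. SHP-1, encoded by PTPN6, is a protein tyrosine phosphatase best known from receptor signaling in blood cells and also present in hepatocytes.

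HepG2 cells, a line from a human liver tumor, were profiled untreated in 2 genotypes, labelled SHP-1-WT for the CRISPR control cells and SHP-1-KO for the CRISPR knockout cells. For each genotype there was 1 library with an antibody to the RPB1 C-terminal domain and 1 with an antibody to its pSer2 form, and regions were called against 1 input library of the same cells. According to the methods, single-cell clones were grown after transfection with guides to the phosphatase domain exons or with a nontargeting guide, and which clone gave each library is not given in the sources used here, so genotype, clone and library cannot be told apart. With 1 library per antibody and genotype there is no replicate error and no test of a difference. Shares of regions carry 95% Wilson intervals, which cover counting error only. The lists held 46045 WT and 41605 SHP-1 KO RPB1 regions and 102674 WT and 81012 SHP-1 KO pSer2 regions, and they hold no read counts, so the depth is unknown. A region without a WT counterpart is one that was not called in WT, which is not a measurement of no polymerase. RPB1 regions annotated to a promoter were found at 9 of 11 hepatocyte markers in WT and 8 of 11 in SHP-1 KO cells and at 0 of 5 fibroblast markers in either, and at 2 and 1 of 6 blood cell markers and 1 and 1 of 4 endothelial markers. Among the hepatocyte markers, APOA1 and APOA2 had no SHP-1 KO RPB1 region, though the SHP-1 KO pSer2 list held 5 and 2 regions there. FOXA2 had no RPB1 region in either list. No KO-only region was assigned to a marker gene, to PTPN6 or to PCK1, the gluconeogenic gene at the center of the study. The start of PTPN6 carried an RPB1 region in both lists, so the RPB1 lists do not check the knockout.

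The KO-only regions were divided into 3 kinds by their distance to the nearest WT RPB1 region, and summit sequences are shown as examples of the nearest and the farthest kind. A total of 522 lay within 1 kb of a WT region, 230 lay between 1 and 10 kb away, and 129 lay more than 10 kb away and are called isolated. The summit with 100 bases on each side is given for a few regions from hg38, with each CG dinucleotide in capitals. In each kind they are among the regions with the highest −log10 q-value whose window touched no annotated UTR. The first set is at isolated regions annotated to a promoter.

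SIRPA (hg38, chr20:1894572-1894772, forward strand): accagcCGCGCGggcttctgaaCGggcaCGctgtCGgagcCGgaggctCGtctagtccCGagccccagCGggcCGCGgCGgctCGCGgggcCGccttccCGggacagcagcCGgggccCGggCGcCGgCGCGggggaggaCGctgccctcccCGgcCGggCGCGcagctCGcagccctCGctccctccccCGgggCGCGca
VPS13D (hg38, chr1:12477938-12478138, forward strand): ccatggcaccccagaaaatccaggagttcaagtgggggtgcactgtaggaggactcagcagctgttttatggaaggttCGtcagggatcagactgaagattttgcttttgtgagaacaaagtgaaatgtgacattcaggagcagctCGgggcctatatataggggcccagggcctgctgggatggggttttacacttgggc
RGS17 (hg38, chr6:153131288-153131488, forward strand): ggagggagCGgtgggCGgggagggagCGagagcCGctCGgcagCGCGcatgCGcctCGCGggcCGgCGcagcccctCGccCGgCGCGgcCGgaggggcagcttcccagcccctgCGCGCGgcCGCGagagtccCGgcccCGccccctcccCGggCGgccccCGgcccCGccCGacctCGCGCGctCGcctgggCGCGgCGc

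The windows at SIRPA and RGS17 hold 33 and 36 CG dinucleotides and the window at VPS13D holds 2. The next pair is at isolated regions outside promoters that overlapped a pSer2 region of SHP-1 KO cells and none of WT cells.

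MIR4708 (hg38, chr14:65302192-65302392, forward strand): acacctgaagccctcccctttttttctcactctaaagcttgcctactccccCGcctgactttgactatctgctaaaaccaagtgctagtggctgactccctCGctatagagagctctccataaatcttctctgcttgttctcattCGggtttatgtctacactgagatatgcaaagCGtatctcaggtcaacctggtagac
CUBN (hg38, chr10:16892002-16892202, forward strand): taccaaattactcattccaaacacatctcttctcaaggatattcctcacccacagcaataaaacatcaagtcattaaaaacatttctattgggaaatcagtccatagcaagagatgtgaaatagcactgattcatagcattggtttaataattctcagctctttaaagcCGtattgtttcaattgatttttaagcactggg

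These windows hold 4 and 1 CG dinucleotides. The last pair is inside transcribed genes within 1 kb of a WT RPB1 region, where pSer2 regions were called in both cell types.

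PSAT1 (hg38, chr9:78314846-78315046, forward strand): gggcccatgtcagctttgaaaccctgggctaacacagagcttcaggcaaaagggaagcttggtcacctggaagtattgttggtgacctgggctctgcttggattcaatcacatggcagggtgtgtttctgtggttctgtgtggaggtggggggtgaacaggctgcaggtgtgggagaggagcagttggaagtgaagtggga
OIP5-AS1 (hg38, chr15:41304800-41305000, forward strand): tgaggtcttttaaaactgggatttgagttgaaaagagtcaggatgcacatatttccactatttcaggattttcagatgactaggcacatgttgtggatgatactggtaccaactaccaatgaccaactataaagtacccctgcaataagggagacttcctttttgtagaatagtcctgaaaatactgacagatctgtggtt

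Neither window holds a CG dinucleotide.

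The values that selected the regions describe them as mostly small and weak, with a short tail of strong ones. Enrichment over input, given as a fold at each summit, ran from 1.84 to 19.5 with a median of 6.34, and the −log10 q-value ran from 7.01 to 51.5 with a median of 8.33. Values of 15 or more were reached by 39 regions, of 20 or more by 14, of 30 or more by 5 and of 40 or more by 3. The median length was 360 bp, against 1018 bp for the shared regions, whose median fold enrichment was 12.5. The WT-only regions were closer, with a median length of 429 bp and a median fold enrichment of 6.51. Most of the difference in length went with strength, but not all. Among regions with a −log10 q-value from 7 to 10, the 692 KO-only regions had a median length of 343 bp and the 3660 shared regions 482 bp. Just inside the threshold were regions at PA2G4 (7.01), ZC3H15 (7.01) and NFAT5 (7.01), and just outside it regions at PACS1 (6.995), LINC01635 (6.994) and TRAPPC12 (6.994).

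Most KO-only regions stood beside polymerase that was also called in WT cells, but the strongest did not. The median distance to the nearest WT RPB1 region was 686 bp, with a range from 1 to 2773464 bp. The share within 1 kb was 59.3% (56.0 to 62.4), the share from 1 to 10 kb was 26.1% (23.3 to 29.1) and the share beyond 10 kb was 14.6% (12.5 to 17.1). The last share was 27.5% (21.6 to 34.3) of the 189 regions past a −log10 q-value of 10 and 85.7% (12 of 14, 60.1 to 96.0) of those past 20. Of the WT-only regions, 41.0% lay within 1 kb of a SHP-1 KO region and 29.8% beyond 10 kb. Of the 522 KO-only regions within 1 kb, 170 had a WT region on both sides within that distance and 352 on 1 side. For 383 of the 522 (73.4%, 69.4 to 77.0), the nearest WT region was itself overlapped by another SHP-1 KO region, so both cell types had a called region there and the SHP-1 KO list had one more beside it. A further SHP-1 KO region outside the set lay within 1 kb of 462 of them. The isolated regions had fewer such neighbors: 24 of 129 had another SHP-1 KO region within 1 kb and 38 within 10 kb. The grouping in part fixes this contrast, because shared regions overlap a WT region and isolated regions have none within 10 kb.

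**Figure D1:**
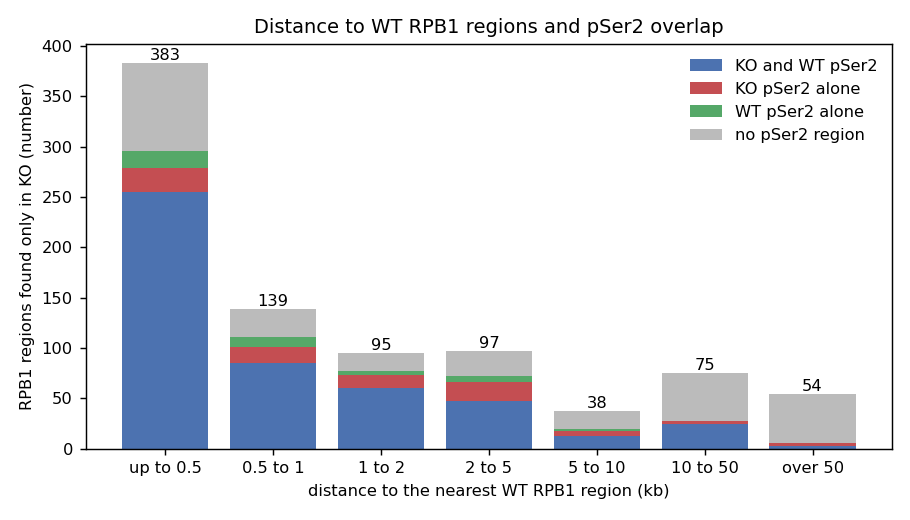
Number of KO-only RPB1 regions (y axis) by distance to the nearest WT RPB1 region in kb (x axis), stacked by overlap with the pSer2 lists. The lowest bin, up to 0.5 kb, holds 383 regions, of which 255 overlap pSer2 regions of both cell types, whereas 48 of the 54 regions beyond 50 kb overlap none.

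By the authors' annotation, the KO-only regions lay more in gene bodies and less at promoters than the shared regions. Introns held 328 of 881 (37.2%, 34.1 to 40.5), with 136 in a first intron and 192 in a later one. Promoters held 267 (30.3%, 27.4 to 33.4), distal intergenic sequence 11.5% (9.53 to 13.7), 3′ UTRs 96, exons 58, downstream sequence 25 and 5′ UTRs 6. Of the shared regions, 68.7% (68.0 to 69.4) were at promoters and 11.1% (10.7 to 11.6) in introns. Among both KO-only and shared regions, weaker ones lay less often at promoters, and the gap between the sets was narrower in the bins below a −log10 q-value of 15. From 7 to 10, promoters held 28.3% (25.1 to 31.8) of the KO-only regions and 36.7% (35.1 to 38.2) of the shared ones, and introns 39.0% (35.4 to 42.7) and 26.1% (24.7 to 27.5). From 10 to 15, the promoter shares were 34.7% (27.5 to 42.6) and 42.9% (41.0 to 44.7), and at 15 or more they were 48.7% (19 of 39, 33.9 to 63.8) and 83.8% (83.1 to 84.4). The WT-only regions had a like promoter share, 31.1% (29.4 to 32.9), and were distal in 22.6% (21.0 to 24.2) against 11.5% (9.53 to 13.7) of the KO-only regions.

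**Figure D2:**
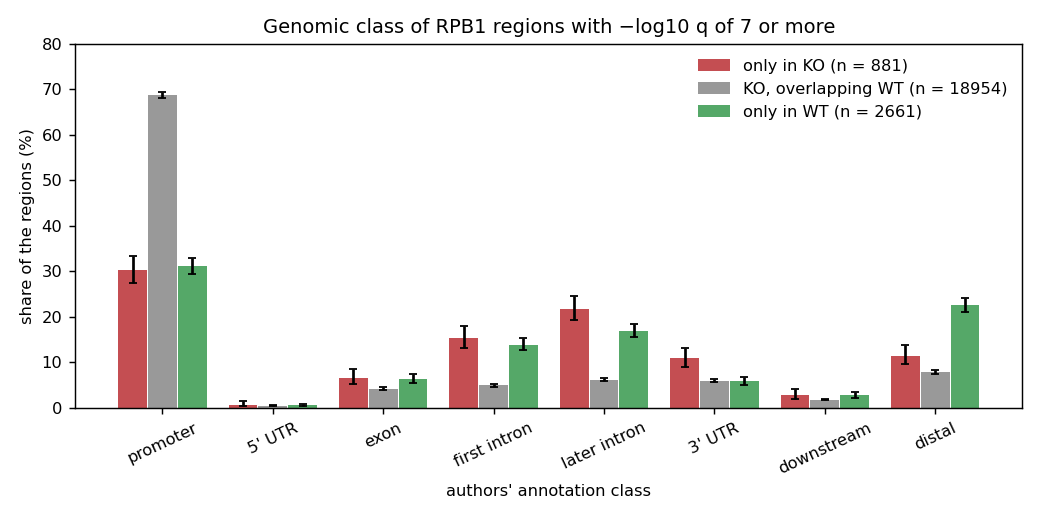
Share of RPB1 regions (y axis, %) in each annotation class (x axis) for KO-only, shared and WT-only regions with a −log10 q-value of 7 or more, with 95% Wilson intervals as bars. Promoters hold 68.7% of the shared regions and 30.3% of the KO-only ones, and later introns hold 6.20% and 21.8%.

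Kinds by distance also differed in annotation. Promoters held 59 of the 129 isolated regions (45.7%, 37.4 to 54.3), 29.1% (25.4 to 33.2) of those within 1 kb of a WT region and 24.3% (19.3 to 30.3) of those in between. The authors' promoter class counts any transcript start within 1 kb, so the position was also taken against the outermost start of protein-coding genes in GENCODE release 44. By this measure 7.72% (6.13 to 9.67) of the KO-only regions were within 1 kb of a gene start, against 46.7% (46.0 to 47.4) of the shared ones. The share was 30.2% (22.97 to 38.6) for isolated regions and 4.41% (2.95 to 6.53) for those within 1 kb of a WT region.

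The isolated promoter regions included the strongest KO-only regions. The 59 regions belonged to 57 genes, and 49 spanned the annotated start. Their fold enrichment ran from 4.71 to 19.5 with a median of 7.39, and 31 had a −log10 q-value of 10 or more. For 46 of them, the WT list held no RPB1 region assigned to the gene. The strongest was at GALNT13, which encodes an enzyme that starts O-glycan chains, at chr2:153871216-153872670, where the fold enrichment reached 19.5 and the −log10 q-value 51.5. The nearest WT region was 575060 bp away, and the WT list gave the gene 1 region elsewhere, with a fold enrichment of 3.93. Neither pSer2 list held a region at GALNT13. The long noncoding RNA gene LINCR-0002 had a promoter region with a fold enrichment of 18.6 at chr3:191425243-191425962, 94790 bp from the nearest WT region. It overlapped a SHP-1 KO pSer2 region with a fold enrichment of 5.09. Elsewhere, LINCR-0002 was assigned pSer2 regions of both cell types, 5 in WT with a highest fold enrichment of 9.56 and 9 in SHP-1 KO cells with a highest of 5.29.

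MYL9, which encodes a regulatory light chain of nonmuscle and smooth muscle myosin, had a promoter region with a fold enrichment of 18.3 at chr20:36541283-36542088. A second KO-only region lay in its 3′ UTR with a fold enrichment of 6.51 and overlapped a SHP-1 KO pSer2 region with a fold enrichment of 6.07. The WT list held 0 RPB1 regions at MYL9 and the SHP-1 KO list 4, and the pSer2 lists held 1 and 4. MYL9 is thus a case where RPB1 at the start and pSer2 toward the end were both called in SHP-1 KO cells. The nearest WT RPB1 region to its promoter, at 11174 bp, was assigned to another gene.

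Further isolated promoter regions had lower values. The fold enrichment was 14.2 at EXTL1, an exostosin-like glycosyltransferase gene. Elsewhere, EXTL1 was assigned 1 WT RPB1 region with a fold enrichment of 20.4, and the highest value of its 2 SHP-1 KO regions was 22.8. EXTL1 thus had RPB1 called in both cell types, and its KO-only region was not within 1 kb of a gene start in GENCODE. Fold enrichments were 11.7 at PEX7, the receptor for import of a class of peroxisomal enzymes, and 11.5 at DPP10-AS1, an antisense RNA gene. The genes from DSC3 to FYN that follow were named after their values were seen. DSC3, a desmosomal cadherin gene, had a fold enrichment of 10.5, SIRPA, the CD47 receptor gene, had 10.3, FGD1, a CDC42 exchange factor gene, had 10.6 and BEX2 had 10.6. Lower in −log10 q-value were RGS17 with a fold enrichment of 9.76, STOX2 with 9.72, SLC2A3, which encodes the glucose transporter GLUT3, with 7.72, and EPHB1, an ephrin receptor gene, with 7.92. FYN, a Src family kinase gene, had KO-only regions at 2 of its promoters, with fold enrichments of 8.89 and 6.62. UGT2B4, which encodes a bile acid glucuronosyltransferase, had a promoter region with a fold enrichment of 5.48 and 328658 bp from the nearest WT region. The KO-only regions at STOX2 and UGT2B4, like that at EXTL1, were not within 1 kb of a gene start in GENCODE. UGT2B4 was assigned 0 WT and 2 SHP-1 KO RPB1 regions and 0 WT and 3 SHP-1 KO pSer2 regions. Of these, SIRPA, FGD1, BEX2, RGS17, STOX2, PEX7, EPHB1 and DPP10-AS1 had no region in the WT RPB1 list and none in either pSer2 list.

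**Figure D3:**
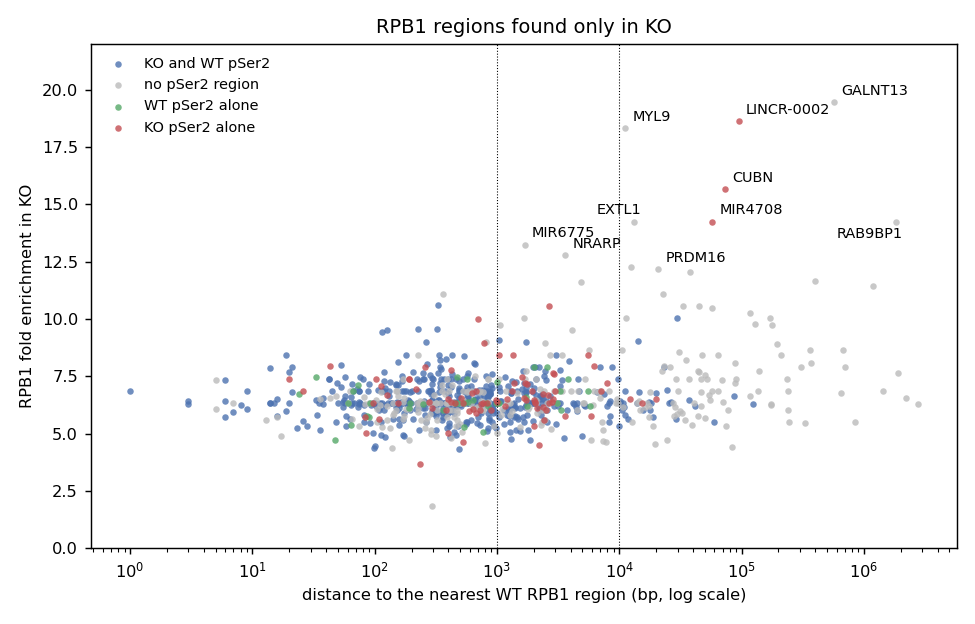
RPB1 fold enrichment in SHP-1 KO cells (y axis) of each KO-only region against its distance to the nearest WT RPB1 region in bp (x axis, log scale), colored by pSer2 overlap, with the 10 regions of highest −log10 q-value named and dotted lines at 1 and 10 kb. Regions near WT regions cluster around a fold enrichment of 6.34, and the values above 15 (GALNT13, LINCR-0002, MYL9 and CUBN) all lie more than 10 kb away.

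By −log10 q-value, 4 regions led the isolated ones outside promoters. A region annotated to an exon and assigned to MIR4708, a microRNA gene whose start was 32161 bp away, lay at chr14:65301908-65303022 with a fold enrichment of 14.2. It overlapped a SHP-1 KO pSer2 region with a fold enrichment of 5.54. A region in a late intron of CUBN, which encodes the vitamin B12 and albumin receptor cubilin, lay at chr10:16891862-16892297 with a fold enrichment of 15.7 and overlapped a SHP-1 KO pSer2 region with a fold enrichment of 3.42. The WT RPB1 list and the WT pSer2 list held 0 regions at CUBN. A region assigned to the pseudogene RAB9BP1 had a fold enrichment of 14.2 and lay 1829688 bp from any WT region, with no pSer2 region. PRDM16, a gene for a zinc finger regulator of brown fat genes, had an isolated intronic region with a fold enrichment of 12.2 and another KO-only region with a fold enrichment of 11.1 at 360 bp from a WT region, in a gene with 27 WT and 23 SHP-1 KO RPB1 regions.

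Outside the isolated group, the regions of highest −log10 q-value were at genes with WT polymerase nearby. A distal region assigned to MIR6775 had a fold enrichment of 13.2 at 1684 bp from a WT region. NRARP, a Notch-regulated ankyrin repeat gene, was assigned KO-only regions of 12.8 and 11.6, at 3598 and 4830 bp. In PSAT1, which encodes an enzyme of serine synthesis, an intronic KO-only region of 10.6 lay 328 bp from a WT region and overlapped pSer2 regions with fold enrichments of 7.09 in SHP-1 KO and 11.4 in WT cells. PSAT1 shows the commonest form: a short extra region within elongating polymerase that both lists had called. A longer example was the promoter region at LINC01909, with a fold enrichment of 8.03. The longest KO-only region, at 2099 bp, was instead an isolated one, 14237 bp from the nearest WT RPB1 region. It was a distal region assigned to CERNA2, a gene with 0 WT RPB1 regions, and overlapped pSer2 regions of both cell types.

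The pSer2 lists come from other libraries than the rule used. Of the KO-only regions, 571 of 881 overlapped a SHP-1 KO pSer2 region (64.8%, 61.6 to 67.9) and 527 a WT pSer2 region (59.8%, 56.5 to 63.0). Over all 19835 strong SHP-1 KO RPB1 regions, these shares were 60.8% and 65.2%. Each share on its own was thus near that of all strong regions. The SHP-1 KO share was the higher one for the KO-only regions and the lower one over all strong regions. When only a WT region overlapping 50% of both regions counted as a counterpart, the order for the resulting 5501 regions was the other way, with 66.3% for SHP-1 KO and 70.8% for WT pSer2. Apart from the 881, those regions are shared ones that overlap a WT region by less. The shared regions as a whole had the same order, 60.7% and 65.5%. In total 488 overlapped both lists, 83 the SHP-1 KO list alone, 39 the WT list alone and 271 neither. The share with SHP-1 KO pSer2 alone was 9.42% (7.66 to 11.5) and that with WT pSer2 alone 4.43% (3.25 to 5.99). For the shared regions these were 5.00% (4.70 to 5.32) and 9.82% (9.41 to 10.3), and for the WT-only regions 0.864% (0.577 to 1.29) and 17.7% (16.3 to 19.2). Within the −log10 q-values from 7 to 10, SHP-1 KO pSer2 alone was found at 8.09% (6.28 to 10.4) of the KO-only and 2.38% (1.93 to 2.92) of the shared regions. WT pSer2 alone was found at 5.20% (3.78 to 7.12) and 8.33% (7.48 to 9.27). The KO-only regions were shorter than the shared ones in this range, and the WT pSer2 list held more regions, and the part of either was not tested. The RPB1 and pSer2 regions of a genotype were called against the same input library, and the part this plays was not tested.

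**Figure D4:**
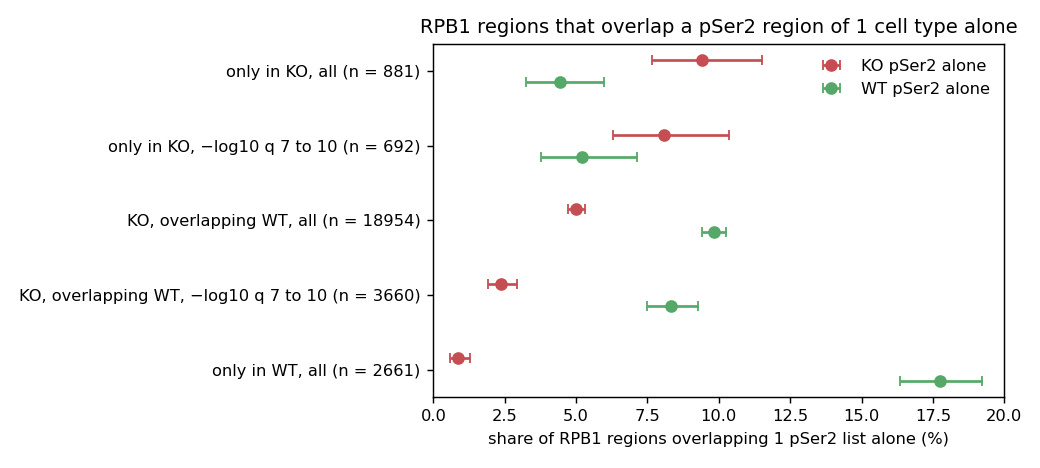
Share of RPB1 regions (x axis, %) that overlap a pSer2 region of SHP-1 KO cells alone or of WT cells alone, with 95% Wilson intervals, for KO-only, shared and WT-only regions (y axis). Among KO-only regions the SHP-1 KO share (9.42%) is above the WT share (4.43%), and among shared and WT-only regions it is below.

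Overlap with pSer2 followed the place in the gene. In the SHP-1 KO pSer2 list, it was 87.5% (79.4 to 92.7) for KO-only regions in 3′ UTRs, 79.7% (73.4 to 84.8) in later introns, 68.4% (60.1 to 75.6) in first introns, 49.1% (43.1 to 55.03) at promoters and 48.5% (39.0 to 58.1) in distal sequence. The shared regions at promoters overlapped it in 56.2% (55.4 to 57.1) and those in later introns in 72.2% (69.5 to 74.7). At promoters, 28 of 267 KO-only regions had SHP-1 KO pSer2 alone and 7 had WT pSer2 alone, and in later introns 24 and 8 of 192 did. In first introns the counts were 16 and 14 of 136, and in exons they were 3 and 5 of 58. Among shared regions, SHP-1 KO pSer2 alone and WT pSer2 alone were found at 5.55% and 10.9% of promoters, 4.68% and 8.00% of later introns, 4.20% and 11.0% of first introns and 4.00% and 6.49% of exons. By distance, 115 of 522 regions within 1 kb of a WT region had no pSer2 region (22.03%, 18.7 to 25.8), 61 of 230 in between (26.5%, 21.2 to 32.6) and 95 of 129 isolated ones (73.6%, 65.4 to 80.5). SHP-1 KO pSer2 alone was most frequent from 1 to 10 kb, at 37 of 230 (16.1%, 11.9 to 21.4). Of the 59 isolated promoter regions, 54 had neither (91.5%, 81.6 to 96.3). None of the 129 isolated regions had WT pSer2 alone, and 6 had SHP-1 KO pSer2 alone. The isolated WT-only regions also mostly lacked pSer2, with neither list at 667 of 792 (84.2%, 81.5 to 86.6), WT pSer2 alone at 88 and SHP-1 KO pSer2 alone at 3.

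Where a pSer2 region was present, it was usually much longer than the KO-only region. Its median length was 1726 bp in the SHP-1 KO list and 1890 bp in the WT list, and it covered the KO-only region completely in 358 of 571 and 331 of 527 cases. Its fold enrichment had a median of 6.14 and a range of 2.14 to 33.2 in the SHP-1 KO list. Among regions with SHP-1 KO pSer2 alone, after LINCR-0002, MIR4708 and CUBN the highest −log10 q-values were in the 3′ UTR of POLN, a DNA polymerase gene, with an RPB1 fold enrichment of 10.6 and a pSer2 fold enrichment of 5.34, and in an intron of LYZL1, with 8.42 and 3.63.

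The 881 regions were assigned to 736 genes, which is 6.24% of the 11798 genes with a strong SHP-1 KO region. A single KO-only region was assigned to 636 of them, 2 to 66 and 3 or more to 34. A WT RPB1 region was assigned to the same gene for 784 of the 881 regions (89.0%, 86.8 to 90.9), and 91 genes had none, of which 58 also had no WT pSer2 region. Joined across gaps of up to 10 kb, the regions formed 757 clusters, of which 88 held 2 or more (212 regions together).

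The largest cluster, of 6 regions, was in CPLX2, which encodes the synaptic vesicle protein complexin 2. It ran from 175868241 to 175880625 on chromosome 5. The fold enrichments of its regions were 9.99, 8.44, 7.66, 7.37, 6.32 and 5.88. The CPLX2 gene had 11 WT and 17 SHP-1 KO RPB1 regions, with highest fold enrichments of 9.02 and 16.4, and 4 WT and 9 SHP-1 KO pSer2 regions, with highest fold enrichments of 7.11 and 19.7. Of its KO-only regions, 4 overlapped SHP-1 KO pSer2 regions and none a WT pSer2 region. These values stand side by side and come from separately called lists. The genes with 4 regions each were PABPC1L, RBM39, ABALON, IARS, WARS, FNDC3B, SEL1L and KPNB1. In SEL1L, an endoplasmic reticulum degradation adaptor gene, all 4 lay in the first intron and overlapped pSer2 regions of both cell types. In IARS, the isoleucyl-tRNA synthetase gene, they also overlapped pSer2 regions of both cell types, and the gene had 6 WT and 24 SHP-1 KO RPB1 regions. In WARS, the tryptophanyl-tRNA synthetase gene, there were 6 and 19.

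The pathway lists below are short, with 0 to 4 genes each that carried a KO-only region, and differences from the share over all genes were not tested. Beside the 6.24% of all genes with a strong SHP-1 KO region, the lists held 1 of 13 such genes for gluconeogenesis (G6PC3), 1 of 9 for STAT5 targets (OSM), 0 of 21 for JAK and STAT signaling, 1 of 24 for immediate early genes (CCN2), 2 of 14 for interferon-stimulated genes (IRF9 and MX2) and 0 of 16 for p53 targets. The G6PC3 region lay 89 bp from a WT RPB1 region and overlapped WT pSer2 alone. Neither the RPB1 nor the pSer2 lists held a region assigned to G6PC. Growth factors and receptor kinases had 2 of 23 (EPHA2 and VEGFA), liver transcription factors 1 of 18 (TBX3), imprinted genes 2 of 13 (KCNQ1OT1 and SGCE) and epithelial genes 1 of 10 (CLDN6). Neuronal and cancer-testis genes had none of 5 and none of 1. The stress response list had 4 of 25, namely DNAJB9, GCLC, SLC2A1 and SLC7A11, the last a cystine transporter gene with 2 regions.

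The lists with the most KO-only regions were mesenchymal and cytoskeletal genes and xenobiotic metabolism. The strong SHP-1 KO regions at their genes were not counted, so their KO-only share cannot be set beside the 4.44% over all such regions. Mesenchymal and cytoskeletal genes had 4 of 16 with 9 regions, at MYL9, THBS1, FN1 and CALD1, the last with 1, and 4 genes of this list carried a WT-only strong region. THBS1, the thrombospondin gene, had 3 regions with fold enrichments of 7.77, 7.03 and 6.86, each over pSer2 regions of both cell types, and the gene had 12 WT pSer2 regions reaching a fold enrichment of 6.86 and 4 SHP-1 KO pSer2 regions reaching 15.7. Its highest RPB1 fold enrichment was 74.5 in the WT list against 54.7 in the SHP-1 KO list. In FN1, the fibronectin gene, the 3 regions had 6.36, 5.16 and 5.07 in a gene with 53 WT and 57 SHP-1 KO RPB1 regions. Xenobiotic metabolism had 4 of 22 with 7 regions, 3 at AKR1C1, 1 at its neighbor AKR1C2, 2 at NQO1 and 1 at UGT2B4, and 3 genes of this list carried a WT-only strong region. AKR1C1 and AKR1C2 encode near-identical reductases, so reads may be split between them. AKR1C1 had 19 WT and 15 SHP-1 KO RPB1 regions, so the SHP-1 KO list was the shorter one there.

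KO-only regions were on every chromosome from 1 to 22 and X, which held 879 of them. The share of strong SHP-1 KO regions that were KO-only ran from 3.03% on chromosome 19 to 6.39% on chromosome 9, with a median of 4.85%. Chromosome 9 held 5.90% (4.53 to 7.66) of the KO-only and 4.02% (3.75 to 4.31) of the shared regions. Chromosome 1 held 6.81% (5.33 to 8.67) and 9.97% (9.55 to 10.4), and chromosome 19 held 5.56% (4.23 to 7.28) and 8.27% (7.88 to 8.67). On the other chromosomes from 1 to 22 and X, the intervals of both shares overlapped. Of the 2 remaining regions, the one on mitochondrial DNA had the lowest fold enrichment of all, 1.84.

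In base composition the isolated promoter regions were near shared promoters of all strengths, and the other KO-only regions had less GC. All 881 had a full window of 100 bases on each side of the summit. The median GC content was 48.3% over all KO-only regions, 47.0% within 1 kb of a WT region and 71.1% at isolated promoters, against 64.2% for the shared regions and 68.2% for shared promoters. Shared regions with −log10 q-values from 7 to 10 had a median of 53.7%, and KO-only regions in that range 48.3%, a narrower gap than over all strengths. Shared promoters in that range had 59.2%. A window was called CpG-rich when its GC content was above 50% and its observed CG count above 0.6 of that expected from its bases. CpG-rich windows were 4.41% (2.95 to 6.53) of the KO-only regions within 1 kb of a WT region, 7.14% (3.09 to 15.7) of the isolated ones outside promoters and 64.4% (51.7 to 75.4) of the isolated promoters. They were 74.5% (73.8 to 75.3) of shared promoters, 27.8% (25.5 to 30.3) of shared promoters with −log10 q-values from 7 to 10, 15.1% (13.9 to 16.2) of all shared regions in that range, 6.79% (5.15 to 8.92) of KO-only regions in that range and 54.0% (48.1 to 59.7) of the 278 isolated WT-only promoters. Outside promoters, the median GC content was 46.8% for KO-only, 53.2% for shared and 55.2% for WT-only regions. The KO-only and WT-only sets thus differed in GC content outside promoters. That pool joins several annotation classes in unlike mixes, with distal shares of 11.5% of all KO-only and 22.6% of all WT-only regions. GC content within a single class was not compared, and the part that GC content of the libraries plays in the calls was not tested.

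**Figure D5:**
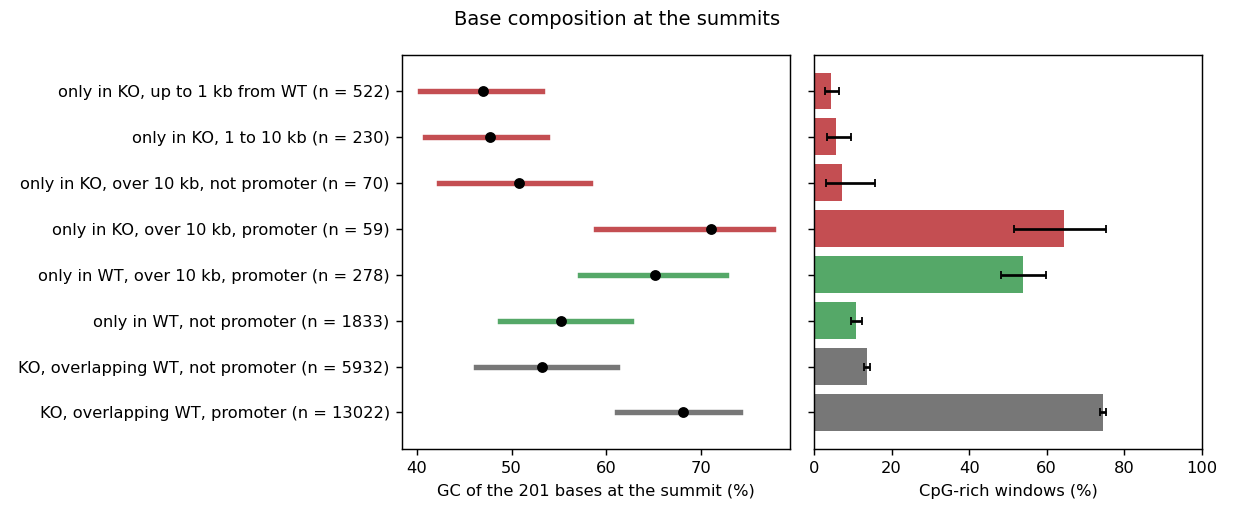
Left, median (dot) and interquartile range (line) of the GC content of the bases around the summit (x axis, %), and right, the share of CpG-rich windows (x axis, %) with 95% Wilson intervals, for kinds of KO-only, WT-only and shared RPB1 regions (y axis). Isolated KO-only promoters have a median GC content of 71.1%, and the KO-only regions within 1 kb of a WT region have 47.0%.

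Short motifs were compared between KO-only and all strong SHP-1 KO windows, which were not matched in GC content or annotation class. They were searched on both strands in the same windows, and a match is a description of the letters. The TATA box TATAAA was in 10.6% (8.70 to 12.8) of KO-only windows and in 4.32% of all strong SHP-1 KO windows. The GC box GGGCGG was in 9.19% (7.46 to 11.3) and 39.6%, and the ETS motif CCGGAAG in 1.14% (0.618 to 2.08) and 7.97%. The FOXA motif TGTTTAC, of a liver factor family, was in 3.63% (2.58 to 5.08) and 1.27%. The STAT motif TTCNNNGAA was in 4.77% (3.55 to 6.38) and 3.35%, and in 0 of the 129 isolated windows (upper bound 2.89%). At isolated promoters the GC box was in 28 of 59 windows (47.5%, 35.3 to 59.96), against 52.9% (52.1 to 53.8) of shared promoters. The ETS motif was in 2 of 59 (3.39%, 0.935 to 11.5), against 10.8% (10.3 to 11.4) of shared promoters.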

How the data were processed

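RPB1 and pSer2-RPB1 ChIP-seq of WT and SHP-1 KO HepG2 cells was used as deposited. Per the labels and methods, the authors used Trimmomatic for trimming, BWA for alignment to hg38 and MACS2 for narrow peaks, called in each library with its matching input as background. For every region the deposited lists hold the authors' summit enrichment (a ratio, as fold over input), −log10 p-values and −log10 q-values, lengths and the nearest gene with its annotation class. Versions are not given in the sources used here. The deposited csaw comparison of RPB1 holds p-values and window numbers per region and was not used, and the input libraries were not analysed here.

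Regions were counted as listed. Overlap required 1 bp, and distances ran between nearest ends. Gene positions came from GENCODE release 44, gene types from RefSeq (877 of the 881 regions matched by gene ID) and sequence from hg38, whose build is that of the files. The interval functions were tested on simulated data. Python 3.11.15, pandas 2.3.3, NumPy 2.4.6, SciPy 1.17.1 and matplotlib 3.10.9 were used. Depth is unknown, and with 1 library per antibody and cell type no p-value was computed.

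The regions and gene lists were chosen with earlier results of these data known. Named were the 15 regions of highest −log10 q-value, genes with most regions, the top 3 per class, the 5 longest, the top 5 with SHP-1 KO pSer2 alone or without a WT RPB1 region at the gene, those at the threshold, listed genes, PTPN6 and PCK1; a subset of these is printed, and some items are not reported here. Alternatives were other q thresholds, overlaps and windows, merged intervals and chromosomes 1 to 22 and X.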

Additional observations from a re-analysis of the deposited data

How the results depend on the processing

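No paired analysis was possible because each antibody and genotype had 1 library. Merging intervals tested nothing, since none were joined and the same 881 regions remained. Keeping chromosomes 1 to 22 and X retained 879 of the 881, so it could hardly move the 5 shares, which stayed within their intervals. Restricting promoters to 1 kb also tested nothing, since every promoter region already lay within that distance. The number of KO-only regions was 189 at a −log10 q-value of 10, 14 at 20, 359 with no WT region within 1 kb and 5501 when only WT regions overlapping 50% of both regions counted, against 881. Under these 4 settings in that order, the share beyond 10 kb from a WT region was 27.5%, 85.7%, 35.9% and 2.35%. The 1 kb and 50% settings keep the same 129 isolated regions, so 35.9% and 2.35% follow from the size of the set alone. The share at genes with a WT RPB1 region was 79.4%, 42.9%, 76.3% and 97.0% under the 4 settings. The promoter share moved to 37.6%, 42.9% and 44.1% at thresholds 10 and 20 and under the 50% rule. SHP-1 KO pSer2 overlap was 59.8%, 21.4% and 53.2% under the first 3 settings, 58.8% with 50% of the region covered and 56.9% with pSer2 −log10 q-values of at least 5. WT pSer2 overlap was 47.1%, 0% (0 of 14), 44.6% and 70.8% under the 4 settings, and 53.2% and 52.4% under the last 2. WT pSer2 overlap was below SHP-1 KO pSer2 overlap in each of these except the 50% rule, where it was 70.8% against 66.3%. Most regions under the 50% rule are shared ones, so that order is not one of KO-only regions alone. Motif shares with 50 and 200 bases on each side of the summit moved past the interval of the value with 100 bases in 21 cases and stayed inside in 9, since longer windows hold more matches. The absence of read counts and replicates limits all shares to descriptions of these libraries.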

Other observations

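Counts for 3 gene groups are given as values only. The groups were put together after names such as SEL1L, HYOU1, SSR1, SERP1, IARS, WARS and PSAT1 had been seen among the KO-only regions, so the counts partly restate those names, and nothing about the groups was tested. Over all genes with a strong SHP-1 KO region, 6.24% had a KO-only region, and 4.44% of all strong SHP-1 KO regions were KO-only. Of 30 genes for endoplasmic reticulum chaperones, folding and degradation, 27 had a strong SHP-1 KO region and 10 had a KO-only region, with 16 regions in all, and 2 had a WT-only strong region. The 16 regions were 18.8% of the 85 strong SHP-1 KO regions at these genes. The 10 genes were CANX, DNAJB9, HYOU1, PDIA4, PDIA6, SEC61B, SEL1L, SERP1, SSR1 and SSR3. The KO-only region in the 3′ UTR of SSR1, a subunit gene of the translocon-associated complex, had a fold enrichment of 9.43. The one in an intron of PDIA4, a disulfide isomerase gene, had 8.98, and the one beside HYOU1, a chaperone gene, had 8.94.

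Of 20 cytosolic aminoacyl-tRNA synthetase genes, 19 had a strong SHP-1 KO region, 4 had a KO-only region (AARS, HARS, IARS and WARS, 10 regions in all) and 2 had a WT-only strong region. The 10 regions were 20.8% of the 48 strong SHP-1 KO regions at the synthetase genes. Of 25 genes for amino acid synthesis, transport and their regulation, 21 had a strong SHP-1 KO region, 5 had a KO-only region (PSAT1, PSPH, SLC3A2, SLC7A5 and SLC7A11, 7 regions in all) and 4 had a WT-only strong region. These 7 regions were 8.43% of the 83 strong SHP-1 KO regions of that group. The KO-only regions at AARS, HARS, IARS and WARS all overlapped pSer2 regions of both cell types.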
